A study of Homo sapiens with 6 samples.

Results

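The cytosolic chaperonin CCT, also called TRiC, is built from the products of 8 genes: TCP1, CCT2, CCT3, CCT4, CCT5, CCT6A, CCT7 and CCT8. These 8 genes, of 60554 in the count files, were selected by their membership of the complex, with earlier results of the same ZFmut and WT comparison in view. Their differences between ZFmut and WT are therefore given as a description, without a test of their own. RNA was sequenced from Daoy, an established human cell line that derives from a medulloblastoma, a tumour of the cerebellum. In the ZFmut group, 3 libraries came from cells that overexpressed ZBTB7B with the substitution R363L in its zinc-finger domain. In the WT group, 3 libraries came from cells that overexpressed the wild-type protein. ZBTB7B is a transcription factor with a BTB domain and zinc fingers. Both groups carried the transgene by lentivirus (multiplicity of infection 15, 72 hr), kept their own ZBTB7B gene, and were cultured in medium with 10% serum, for 4 days per the labels. No library without the transgene was analysed here, so each difference sets the mutant against the wild-type protein and not against untreated cells.

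CCT consists of a pair of stacked rings, in which each subunit has a fixed place, and closes over a bound protein in a cycle driven by ATP. Actins and tubulins depend on it to reach their native fold, as do several proteins with WD40 propellers. Free prefoldin hands unfolded actin and tubulin chains to the chaperonin, and phosducin-like proteins act with it on further substrates. The complex also limits the aggregation of proteins with long glutamine tracts, and dividing cells need it for the supply of cytoskeletal and cell-cycle proteins.

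All 8 genes passed the low-count filter, and each had between 7215 and 102318 reads in every library. The genes lie on 7 chromosomes of GRCh38, with CCT4 and CCT7 far apart on chromosome 2. TCP1 (ENSG00000120438.11) is at chr6:159778498-159789749 on the minus strand, CCT2 (ENSG00000166226.12) at chr12:69585334-69601570 on the plus strand, and CCT4 (ENSG00000115484.14) at chr2:61868089-61888804 on the minus strand. CCT5 (ENSG00000150753.11) is at chr5:10249921-10266412 on the plus strand, and CCT3 (ENSG00000163468.14) at chr1:156308968-156367873 on the minus strand. CCT6A (ENSG00000146731.10) is at chr7:56051630-56063989 and CCT7 (ENSG00000135624.15) at chr2:73233420-73253021, both on the plus strand. CCT8 (ENSG00000156261.12) is at chr21:29055805-29073797 on the minus strand.

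The 250 bases before the RefSeq transcription start (GRCh38.p14) were available for 7 of the 8 genes. Below are the stretches of these windows that lie outside all annotated exons, for the subunits with the largest differences between the groups (CCT2 and CCT3) and with the smallest (TCP1 and CCT8). They are shown to place the upstream DNA of subunits that differed beside that of subunits that hardly differed. Each is written 5′ to 3′ on the strand of its gene. Capitals mark letters of the motifs described in the next paragraph.
CCT2 (chr12:69585209-69585333, plus): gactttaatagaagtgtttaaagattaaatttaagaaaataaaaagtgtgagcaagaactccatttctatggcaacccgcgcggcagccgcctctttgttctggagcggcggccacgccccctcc
CCT3 (chr1:156338466-156338502, minus): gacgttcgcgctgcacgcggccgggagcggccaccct
TCP1 (chr6:159789750-159789811, minus): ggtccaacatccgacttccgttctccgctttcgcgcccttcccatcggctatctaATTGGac
CCT8 (chr21:29073798-29073898, minus): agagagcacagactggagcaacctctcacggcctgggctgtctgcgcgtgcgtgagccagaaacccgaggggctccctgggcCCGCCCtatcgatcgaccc

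Across the whole 250-base windows, on both strands, 4 motifs were searched by their letters. A CCAAT box (CCAAT) occurred in TCP1, CCT2, CCT3 and CCT8, and in 32.0% of 35116 RefSeq promoters of the same length. A GC box (GGGCGG) occurred in the same 4 genes, and in 42.6% of all promoters. The matches of CCT2 and CCT3, the GC box of TCP1 and the CCAAT box of CCT8 lie in the parts of the windows that are not printed. The heat shock element, searched as GAANNTTC or TTCNNGAA, occurred in TCP1 alone among the 7, also outside the printed stretch, and in 11.6% of all promoters. An E-box (CACGTG) occurred in none of the 7, and in 6.34% of all promoters. CCT4, CCT5 and CCT7 held none of the 4 motifs. CCT2, with the largest difference, and CCT8, with the smallest, each held the CCAAT and GC boxes, as did CCT3 and TCP1. Whether the motifs bear on the differences was not tested. Matches of short letters describe the window and do not show a bound factor. The RefSeq start used lies 29581 bases inside the GENCODE gene for CCT3, 888 for CCT7 and 616 for CCT5. The windows of CCT3, CCT5 and CCT7 thus lie wholly inside the annotated genes. For TCP1, CCT2, CCT4 and CCT8 the start lies 125 to 149 bases inside. Parts of all windows lie in exons of GENCODE transcripts.

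Libraries held 22236214 to 102730428 reads in genes, a 4.62-fold range, with the extremes in ZFmut replicates 1 and 3. ZBTB7B, whose counts combine transgene and endogenous transcripts, averaged 576 ± 43.8 CPM (read counts scaled by TMM library size) in ZFmut and 904 ± 44.3 CPM in WT (SD, n = 3 each). Its log2 difference was -0.65 ± 0.06 (SE, edgeR quasi-likelihood adjusted p = 1.39e-06). The substitution and the lower ZBTB7B level cannot be told apart as the source of any difference between the groups. Of the medulloblastoma and granule lineage markers, ZIC1 lay at 25.6 to 27.5 CPM in ZFmut and 23.2 to 26.2 CPM in WT, and ZIC2 at 22.2 to 26.7 CPM in ZFmut and 24.9 to 28.5 CPM in WT. PAX6 lay at 18.5 to 19.4 CPM in ZFmut and 16.3 to 18.8 CPM in WT, and GLI2 at 44.0 to 52.6 CPM in ZFmut and 36.1 to 49.1 CPM in WT. GLI1, at 8.08 to 8.74 CPM in ZFmut and 10.2 to 11.6 CPM in WT, and PTCH1, at 43.2 to 43.3 CPM in ZFmut and 47.1 to 48.2 CPM in WT, lay lower in ZFmut without overlap. ATOH1, NEUROD1, BARHL1 and MYCN were under 0.5 CPM. Markers of blood, T cells, vessel lining and epithelium (PTPRC, CD3E, CDH5, EPCAM) were also under 0.5 CPM. PECAM1, a further endothelial marker, lay at 1.25 to 1.46 CPM in ZFmut and 0.158 to 0.405 CPM in WT, and the glial marker GFAP at 0.626 to 1.25 CPM in ZFmut and 0.380 to 0.598 CPM in WT. RBFOX3, a marker of neurons, overlapped between the groups at 0.918 to 1.25 CPM in ZFmut and 1.11 to 1.59 CPM in WT. The part of these markers in the results was not tested.

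The chaperonin transcripts were somewhat more abundant with the mutant. Summed over the 8 genes they reached 4580 ± 184 CPM in ZFmut and 4159 ± 34.1 CPM in WT (SD, n = 3 each), a ratio of 1.10. They took 0.453 ± 0.0144% of all gene reads in ZFmut and 0.419 ± 0.00694% in WT. The increases ranged from 1.78% for CCT8 to 19.1% for CCT2, and none of the 8 was lower on average. In 6 of the 8, every ZFmut library lay above every WT library, which held for 22.8% of the 18683 tested genes. A whole-culture library cannot separate more transcript in each cell from a larger share of cells with a high level.

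TCP1, CCT2, CCT4 and CCT5 are the subunits that bind ATP with high affinity in the yeast complex. TCP1 is the founding subunit, also called CCT1, whose substrate-binding domain alone can reduce aggregation of mutant huntingtin. TCP1 had 635, 649 and 609 CPM in ZFmut replicates 1 to 3, and 624, 622 and 607 CPM in WT replicates 1 to 3. The groups overlapped, with ZFmut replicate 3 between the WT libraries, and the log2 difference was 0.03 ± 0.05 (SE). CCT2 had 499, 495 and 469 CPM in ZFmut, and 423, 398 and 408 CPM in WT. Its groups were well apart, at 488 ± 16.2 CPM in ZFmut and 409 ± 12.5 CPM in WT, and the log2 difference of 0.25 ± 0.05 was the largest of the 8.

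CCT4 is a subunit in which a mutation causes a sensory neuropathy in rats. CCT4 had 491, 524 and 478 CPM in ZFmut, and 470, 473 and 466 CPM in WT. The ZFmut libraries were all higher, but the lowest of them lay within 5 CPM of the highest WT library, and the log2 difference was 0.08 ± 0.05. CCT5 is the subunit mutated in a human hereditary sensory neuropathy with spastic paraplegia, and it can form rings of its own in isolation. CCT5 had 388, 409 and 368 CPM in ZFmut, and 354, 345 and 343 CPM in WT. All ZFmut libraries were higher, with means of 388 ± 20.9 CPM in ZFmut and 347 ± 5.99 CPM in WT and a log2 difference of 0.16 ± 0.05.

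CCT3, CCT6A, CCT7 and CCT8 bind ATP with low affinity in the yeast complex. CCT3 had 640, 708 and 630 CPM in ZFmut, and 557, 565 and 566 CPM in WT. Its groups stood apart, and ZFmut replicate 2 was above the rest of its group. The means were 660 ± 42.5 CPM in ZFmut and 563 ± 5.01 CPM in WT, with a log2 difference of 0.23 ± 0.05. CCT6A is the more widely expressed of the pair of human genes for the zeta subunit. CCT6A had 1066, 1077 and 1004 CPM in ZFmut, and 982, 958 and 953 CPM in WT. The groups did not overlap, and the log2 difference was 0.12 ± 0.05.

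CCT7 encodes the eta subunit. CCT7 had 530, 579 and 545 CPM in ZFmut, and 469, 491 and 476 CPM in WT. The groups did not overlap, at 551 ± 24.8 CPM in ZFmut and 478 ± 11.2 CPM in WT, and the log2 difference was 0.20 ± 0.05. CCT8 is a subunit whose overexpression raises the assembly of the complex and extends life in the worm Caenorhabditis elegans. CCT8 had 322, 325 and 298 CPM in ZFmut, and 316, 304 and 307 CPM in WT. The groups overlapped, with ZFmut replicate 3 below all WT libraries, and the log2 difference was 0.03 ± 0.05. The median log2 difference was 0.12 for the 4 high-affinity subunits and 0.16 for the 4 low-affinity subunits, and each set held a subunit at 0.03.

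**Figure D1:**
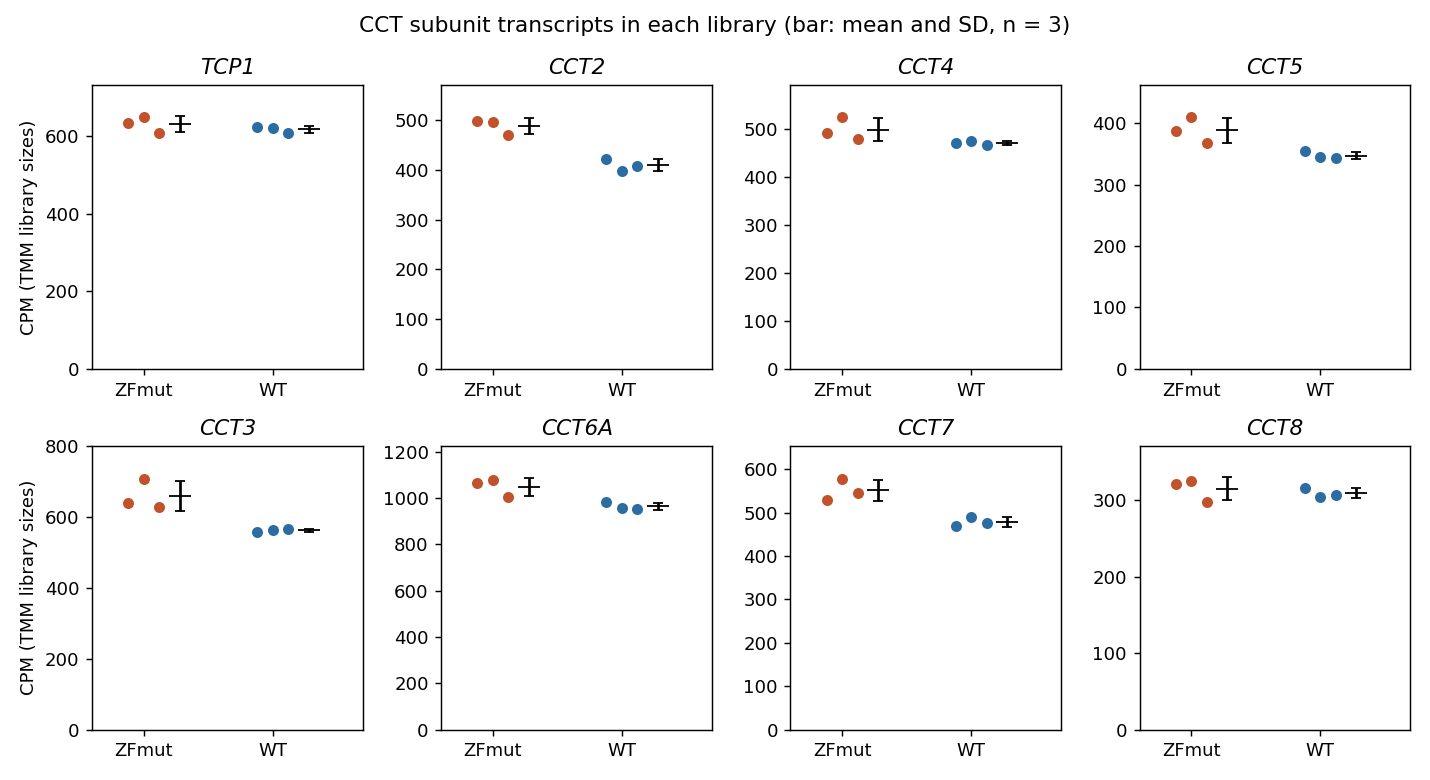
CPM (TMM library sizes) of each CCT subunit gene in the 3 ZFmut and 3 WT libraries; points are libraries and bars the mean and SD. CCT2, CCT3 and CCT7 show a clear gap between the groups, while TCP1 and CCT8 overlap.

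At the threshold used for all genes (edgeR quasi-likelihood test, Benjamini-Hochberg adjusted p under 0.05), 4 of the 8 were called higher in ZFmut and 0 lower. Over all 18683 tested genes, 17.2% were called higher and 18.4% lower. The 4 called were CCT2, CCT3, CCT5 and CCT7, and nothing is read from the count since the genes were picked with this comparison known. The median log2 difference of the 8 was 0.14, beside -0.004 over all tested genes. CCT2, CCT3 and CCT7 were called under all 16 alternative fits. CCT5 lost its call when ZFmut replicate 2, WT replicate 2 or WT replicate 3 was left out, so that 3 of the 8 were called then. CCT6A was called as well, 5 in all, with upper quartile scaling, DESeq2, limma-voom, the filter of 5 CPM in at least 3 libraries, and without ZFmut replicate 3. With the replicate number as a block, CCT4 and CCT6A were called as well, 6 in all. Calls over all tested genes changed too, and more were called higher with the block than in the main fit. Fewer were called higher without ZFmut replicate 2, WT replicate 2 or WT replicate 3. Fewer were also called higher without ZFmut replicate 3, where 5 subunits were called. A change of the subunit counts beyond that of all genes was not tested. Over the alternatives the CCT2 difference ran from 0.23 to 0.28 and the CCT8 difference from 0.01 to 0.09.

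Differences between the groups moved with GC content across all tested genes. The median log2 difference was -0.09 for genes of 40 to 45% GC, -0.02 for 45 to 50% and 0.06 for 50 to 55%. TCP1, CCT4, CCT5, CCT6A and CCT8 lie in the first of these bands (43.1 to 44.7%), CCT2 in the second (45.9%), and CCT3 and CCT7 in the third (51.2 and 51.3%). Each of the 8 was above the median of its band. After a correction for GC content and length per library, the differences of CCT3 and CCT7 were smaller, at 0.18 and 0.16. Those of the other subunits were larger: 0.28 for CCT2, 0.22 for CCT5, 0.17 for CCT6A, 0.13 for CCT4, and 0.09 each for TCP1 and CCT8. With this correction 7 of the 8 were called higher, all but CCT8, beside 20.4% of all tested genes, and the order of CCT3, CCT7 and CCT5 changed. Whether the GC trend is technical was not tested.

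**Figure D2:**
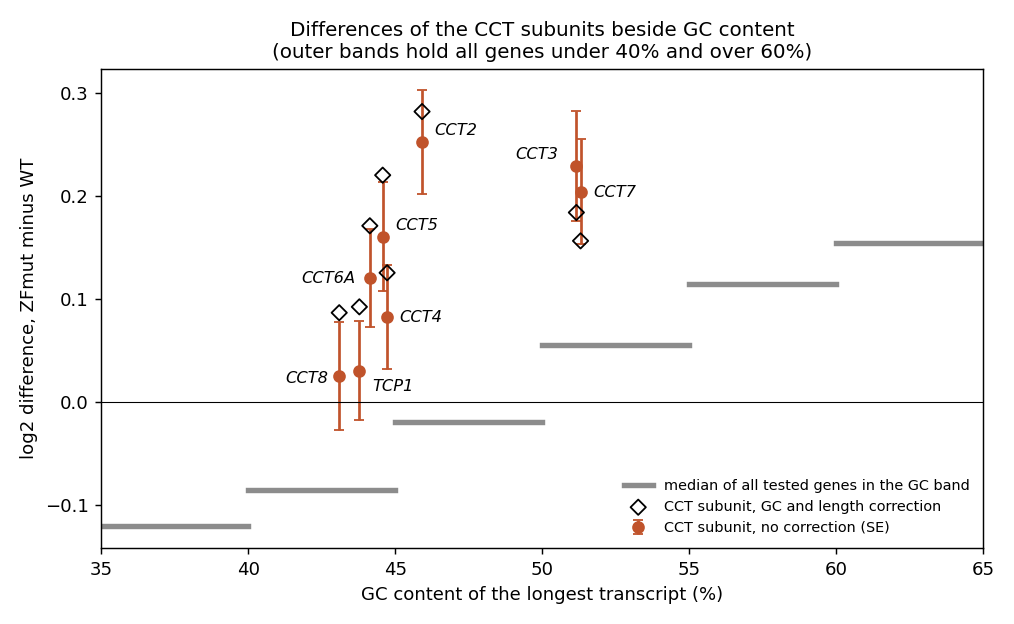
Log2 difference (ZFmut minus WT) of each CCT subunit against the GC content of its longest transcript, with the SE of the fit (filled points) and after GC and length correction (diamonds); grey lines are medians of all tested genes per GC band. Every subunit lies above its band's line, and the 8 differences span 0.03 to 0.25 without the correction and 0.09 to 0.28 with it.

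The shares of the subunits within the complex's own reads do not depend on library scaling. CCT2 took 10.9, 10.4 and 10.7% of the reads of the 8 genes in ZFmut replicates 1 to 3, and 10.1, 9.57 and 9.88% in WT. CCT3 took 14.4 ± 0.428% in ZFmut and 13.5 ± 0.228% in WT (SD, n = 3 each). Both shares were higher in every ZFmut library than in any WT library. TCP1 took 13.9, 13.6 and 13.8% in ZFmut, and 14.9, 15.0 and 14.7% in WT. CCT8 took 6.88 ± 0.145% in ZFmut and 7.44 ± 0.109% in WT, and CCT4 10.9 ± 0.131% in ZFmut and 11.3 ± 0.0885% in WT. These 3 shares were lower in every ZFmut library than in any WT library, while those of CCT5, CCT6A and CCT7 overlapped. The mix of subunit transcripts thus differed between the groups by about a percentage point or less for each gene. The 3 genes with lower shares have 43.1 to 44.7% GC and the 2 with higher shares 45.9 and 51.2%. The genes whose shares overlapped have 44.6% (CCT5), 44.1% (CCT6A) and 51.3% (CCT7). The part of GC content in these shares was not tested. Shares are parts of a whole, so a higher share of some genes lowers those of others.

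**Figure D3:**
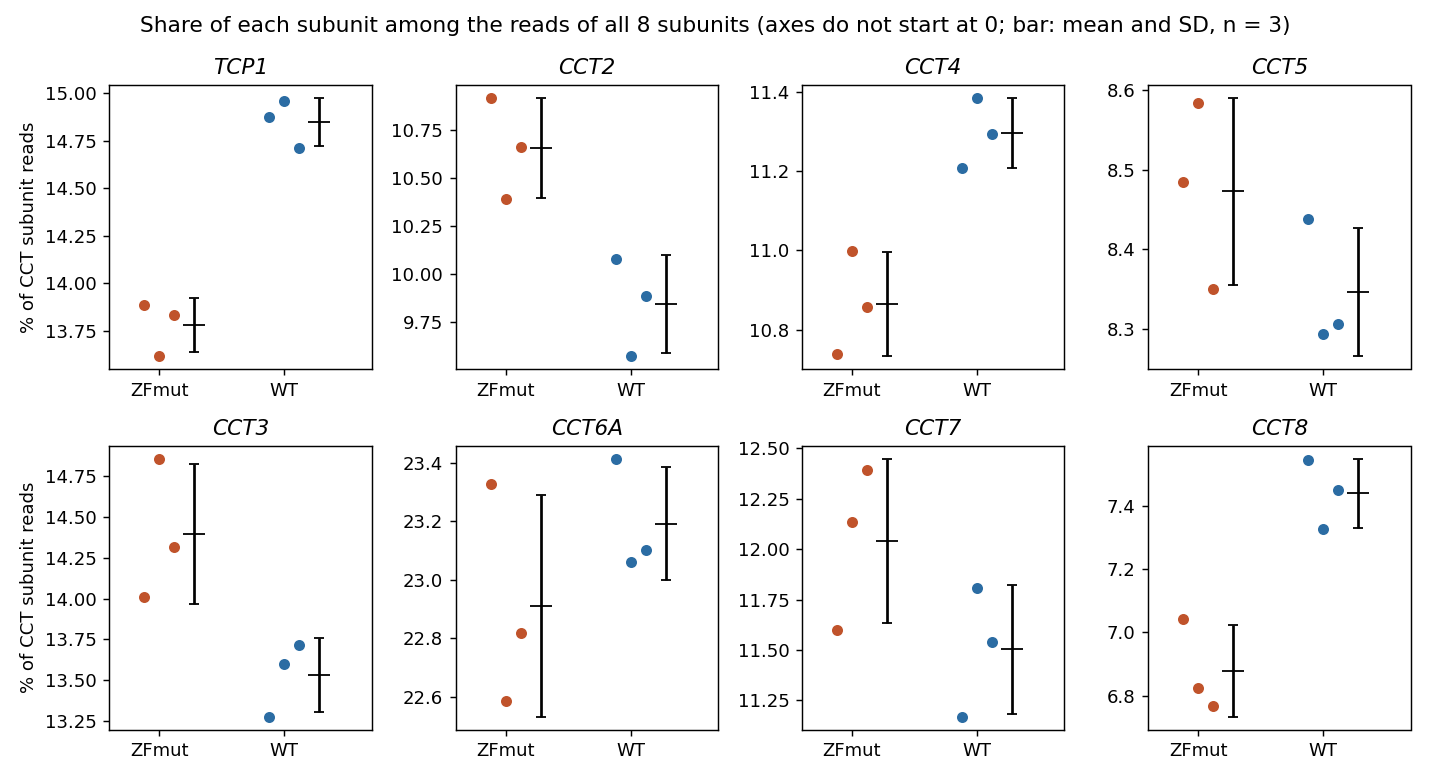
Share (%) of each subunit among the reads of all 8 CCT genes in the ZFmut and WT libraries; points are libraries, bars the mean and SD, and axes do not start at 0. TCP1, CCT4 and CCT8 are lower and CCT2 and CCT3 higher in ZFmut, with no overlap.

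Levels of different genes were compared per kilobase of merged exon, as the mean CPM per kilobase over the 6 libraries. CCT6A was the most abundant at 258, followed by CCT4 at 171, CCT3 at 152, CCT7 at 143, TCP1 at 127, CCT2 at 104, CCT8 at 93.5 and CCT5 at 63.0. This order was the same in the ZFmut libraries and in the WT libraries, and the highest was 4.10 times the lowest. Each gene was above the next in this order in all 6 libraries. Within each group, the ranges of CCT6A and CCT4, CCT7 and TCP1, TCP1 and CCT2, and CCT8 and CCT5 were apart. The ranges of CCT4 and CCT3, and of CCT3 and CCT7, overlapped in ZFmut and were apart in WT. Those of CCT2 and CCT8 were apart in ZFmut and overlapped in WT.

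CCT5 had the lowest mean by each of 3 lengths, but its level depended on the length used. Of its 5839 exonic bases, 30.1% are shared with exons of other genes, against 12.6% for CCT4, 11.1% for TCP1 and 0 for the other 5 subunits. With shared bases left out of the length, a choice made after the data were seen, CCT5 stood at 90.1 CPM per kilobase and CCT8 at 93.5. By that length CCT4 was at 196, TCP1 at 143, and the highest was 2.87 times the lowest. By the length of the longest transcript CCT5 was again the lowest and CCT6A the highest, with a ratio of 3.70, and CCT4 moved from the second place to the sixth.

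**Figure D4:**
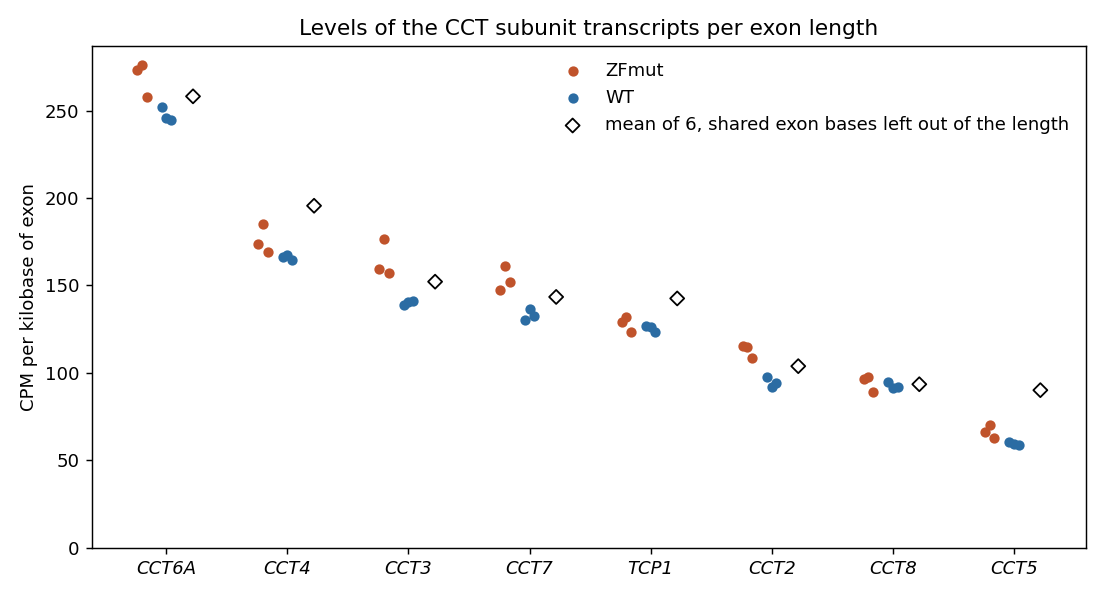
CPM per kilobase of merged exon for each CCT subunit gene in the ZFmut and WT libraries (points), with the mean of all 6 libraries when exon bases shared with other genes are left out of the length (diamonds). CCT6A is highest in both groups, and CCT5 moves from 63.0 to 90.1 with the other length.

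Most pairs of subunits deviated in the same direction within groups. After each library's value was expressed relative to its group mean on the log2 scale, 27 of the 28 pairs of subunits correlated positively over the 6 libraries (median Pearson r = 0.75). The range ran from -0.24 for CCT2 with CCT7 to 0.99 for CCT6A with CCT8. The 8 genes share each library's scaling factor, and other pairs of genes were not examined. ZFmut replicate 2 was above its group mean for all 8 genes, with a mean deviation of 0.06, and ZFmut replicate 3 was below it for all 8, with a mean deviation of -0.06. In ZFmut replicate 1, 4 of the 8 were above the group mean. In WT replicates 1 to 3, 6, 4 and 1 were above it, with mean deviations between -0.01 and 0.01. Without ZFmut replicate 2 the median difference of the 8 was 0.12, and without ZFmut replicate 3 it was 0.18.

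Taken across both groups, CCT5 followed the mean of the other subunits most closely (r = 0.995, n = 6 libraries) and CCT8 least (r = 0.582), with TCP1 at 0.762. These values include the difference between the groups, which was smallest for CCT8 and TCP1 and was in view when the members were chosen. Relative to the group means, CCT8 ran from 0.09 with CCT7 to 0.99 with CCT6A. TCP1 ran from 0.43 with CCT7 to 0.95 with CCT5. Outside the complex, the 6 genes whose log2 CPM correlated best with the mean of the 8, of 9973 protein-coding genes of at least 10 CPM, were PRDX6, EIF2B5, EXOSC2, MAPKAP1, ADH5 and AHSA1 (r = 0.990 to 0.996, n = 6 libraries). PRDX6 is a peroxidase, EIF2B5 a subunit of the exchange factor for initiation factor eIF2, EXOSC2 a part of the RNA exosome, and MAPKAP1 a part of mTORC2. ADH5 oxidises conjugates of formaldehyde, and AHSA1 activates the ATPase of HSP90. PRDX6 averaged 206 ± 7.91 CPM in ZFmut and 185 ± 2.81 CPM in WT, and AHSA1 228 ± 8.84 CPM in ZFmut and 201 ± 3.37 CPM in WT (SD, n = 3 each). The log2 differences of the 6 ran from 0.10 for MAPKAP1 to 0.21 for EXOSC2. They were picked for likeness to genes that differ between the groups, so these differences are a description too.

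By the GENCODE gene starts, several subunit genes start close to a gene on the other strand. The GENCODE start lies before the RefSeq start used for the windows above, by 29581 bases for CCT3, 888 for CCT7, 616 for CCT5, 147 for TCP1 and 133 for CCT4. The distances that follow therefore depend on the start used. The start of CCT5 is 24 bases from that of FAM173B, CCT6A 26 from PSPH, TCP1 63 from MRPL18, CCT4 80 from COMMD1 and CCT7 182 from PRADC1. PSPH, the last enzyme of serine synthesis, was higher at 78.3 ± 6.37 CPM in ZFmut and 67.5 ± 2.16 CPM in WT, a log2 difference of 0.21 ± 0.06 (edgeR quasi-likelihood adjusted p = 0.0157). Its call ended without ZFmut replicate 2 (edgeR adjusted p = 0.0625) and without WT replicate 3 (0.0794). MRPL18, a mitochondrial ribosomal protein, had 119 ± 3.66 CPM in ZFmut and 114 ± 1.85 CPM in WT and did not pass (log2 difference 0.06 ± 0.05, edgeR adjusted p = 0.387). Nor did COMMD1 (0.07 ± 0.06, edgeR adjusted p = 0.450) or PRADC1 (0.21 ± 0.08, 0.0668). PRADC1 passed under 5 alternatives, among them the replicate block (edgeR adjusted p = 0.0106) and the fit without ZFmut replicate 1 (0.00597). FAM173B, at 18.2 ± 0.888 CPM in ZFmut and 20.2 ± 1.24 CPM in WT, had a log2 difference of -0.16 ± 0.07, opposite in sign to CCT5 (edgeR adjusted p = 0.105, and 0.0463 with the replicate block).

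Other genes share sequence with the subunits, which makes their counts less certain. The library kit does not mark strand, and whether counting used strand is not given in the sources used here. ACAT2, a thiolase that runs into TCP1 from the other strand, covers 8.05% of the exonic bases of TCP1. ACAT2 was level between the groups at 102 ± 4.96 CPM in ZFmut and 99.8 ± 2.53 CPM in WT (log2 difference 0.02 ± 0.05, edgeR adjusted p = 0.757). The antisense gene AC012640.4, which covers the shared bases of CCT5, had at most 4 reads in any library, and AC107081.2, opposite CCT4, at most 13. Of 13 annotated pseudogenes of the subunits, 3 passed the filter and 0 were called by edgeR. The highest reached 10.9 CPM, and CCT6P1 had 8.86 ± 0.957 CPM in ZFmut and 8.05 ± 0.573 CPM in WT. Of the 50-base words of the longest coding transcript, 0% of those of CCT2, CCT3 and CCT7 occurred in transcripts of another gene. The share was 6.67% for CCT6A, 8.59% for CCT8, 10.5% for CCT4, 22.1% for TCP1 and 49.8% for CCT5. Genes that overlap the subunit at the same place hold most of these words for CCT5 (AC012640.4, 47.1%), TCP1 (ACAT2, 14.3%) and CCT4 (AC107081.2, 9.19%). Single pseudogenes held at most 2.15% for CCT5, 4.41% for TCP1, 4.01% for CCT6A and 8.59% for CCT8.

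CCT6B, the testis paralog of CCT6A, went the other way. It was a rare transcript here, with 0.892, 1.08 and 1.08 CPM in ZFmut replicates 1 to 3, and 1.83, 1.60 and 1.55 CPM in WT. The groups did not overlap, and CCT6B fell by 0.66 on the log2 scale (SE 0.18, edgeR quasi-likelihood adjusted p = 0.0101). With GC and length correction plus the replicate block its adjusted p was 0.0514.

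Among the factors that work with CCT, calls went both ways. Of 6 prefoldin subunits, 1 was higher, 1 lower and 4 did not pass, with a median log2 difference of -0.03. The shares over all tested genes were 17.2% higher and 18.4% lower. PFDN6 had 67.7, 73.5 and 66.0 CPM in ZFmut, and 58.2, 57.3 and 52.7 CPM in WT, a log2 difference of 0.30 ± 0.06 (edgeR adjusted p = 0.00132; 0.16 after GC and length correction). VBP1 was at -0.17 ± 0.06 (edgeR adjusted p = 0.0388) and at -0.05 after GC and length correction (0.382). The call of VBP1 ended without ZFmut replicate 2, ZFmut replicate 3, WT replicate 1 or WT replicate 3 (edgeR adjusted p between 0.0888 and 0.217). With the replicate block, 2 prefoldin genes were higher and 2 lower. Without ZFmut replicate 1, 2 were lower.

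Of the 3 tested phosducin-like genes, of 4 listed, 2 were lower and 0 higher, with a median of -0.21. For this list and the next, the shares over all tested genes were 18.4% lower and 17.2% higher. PDCL, which assists the assembly of G protein beta and gamma subunits on CCT, had 53.8 ± 1.28 CPM in ZFmut and 65.3 ± 4.64 CPM in WT (log2 difference -0.28 ± 0.06, edgeR adjusted p = 0.00228; -0.17 after GC and length correction). PDCL3 was at -0.21 ± 0.06 (edgeR adjusted p = 0.0124), and missed the threshold without ZFmut replicate 3 (0.0880) or WT replicate 1 (0.0564). Of 4 tubulin folding cofactors, TBCA, which captures beta-tubulin after its release from CCT, was lower at -0.27 ± 0.06 (edgeR adjusted p = 0.00163), but not after GC and length correction (-0.11, 0.0688). TBCB, at -0.02 without the correction, was lower with it (-0.16, edgeR adjusted p = 0.00145), so that 1 of the 4 was lower in each fit. The other 3 cofactors did not pass without the correction, whereas 2 were higher without ZFmut replicate 1 and 1 with the replicate block.

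Tubulins and actins are the classic substrates of CCT. Of 19 tested tubulin genes, 8 were higher, with a median over the list of 0.12. TUBA1A was lower, and 10 missed the threshold. After GC and length correction 7 were higher and 1 was lower. Over all tested genes the shares were 17.2% higher and 18.4% lower, and 20.4% and 21.0% after the correction. TUBB2B, a beta-tubulin of developing neurons, had 124, 129 and 141 CPM in ZFmut, and 49.8, 54.5 and 51.6 CPM in WT. This was a 2.53-fold increase with wide separation (log2 difference 1.34 ± 0.06, edgeR adjusted p = 9.96e-10). TUBB4A, another neuronal beta-tubulin, was 2.87-fold higher at 7.26 ± 0.638 CPM in ZFmut and 2.54 ± 0.627 CPM in WT (edgeR adjusted p = 2.10e-06). TUBB3, also a neuronal beta-tubulin, did not pass, at 1.99 ± 0.253 CPM in ZFmut and 1.94 ± 0.337 CPM in WT (0.11 ± 0.18, edgeR adjusted p = 0.683). TUBA4A was higher by 0.39 ± 0.06 (edgeR adjusted p = 0.000159), and the abundant TUBB averaged 1358 ± 76.2 CPM in ZFmut and 1195 ± 5.75 CPM in WT (0.18 ± 0.05, 0.00956; 0.12 after correction). TUBA1A was the lower one, at 211 ± 7.32 CPM in ZFmut and 272 ± 2.46 CPM in WT (-0.36 ± 0.05, edgeR adjusted p = 6.20e-05). Tubulin paralogs are close in sequence, and reads that align to several of them are outside these counts.

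Of 9 tested actins and actin-related genes, of 11 listed, 0 were higher, 4 lower and 5 did not pass, with a median of -0.08. After GC and length correction 0 were higher and 5 lower. Over all tested genes 18.4% were lower, and 21.0% after the correction. Without ZFmut replicate 3 or WT replicate 3 the lower count was 2. The difference between tubulins and actins was not tested. ACTG1, cytoplasmic gamma-actin, had 2649, 2940 and 2796 CPM in ZFmut, and 3273, 3330 and 3473 CPM in WT. Every ZFmut library was below every WT library, with a log2 difference of -0.26 ± 0.05 (edgeR adjusted p = 0.000687; -0.39 after GC and length correction). ACTB, beta-actin, averaged 6371 ± 467 CPM in ZFmut and 6610 ± 60.8 CPM in WT and did not pass (-0.05 ± 0.05, edgeR adjusted p = 0.446), but was lower after GC and length correction (-0.15, 0.00138). ACTR2, a subunit of the Arp2/3 complex, was lower at -0.24 ± 0.06 (edgeR adjusted p = 0.00698), and at -0.13 after the correction (0.00688). ACTR3 of the same complex was at -0.18 ± 0.05 (edgeR adjusted p = 0.0153) and at -0.01 after GC and length correction (0.925). ACTA1 rested on few reads, at 0.236 ± 0.0348 CPM in ZFmut and 0.475 ± 0.116 CPM in WT (edgeR adjusted p = 0.0388, and 0.0741 to 0.143 in the 5 fits without ZFmut replicate 1, 2 or 3 or WT replicate 2 or 3). With the replicate block 1 of the actin genes was higher.

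Of 17 WD40 and other substrates, 5 were higher and 5 lower. After GC and length correction 4 were higher and 5 lower. The shares of all tested genes were 17.2% higher and 18.4% lower, and 20.4% and 21.0% after the correction. CDC20, which activates the anaphase-promoting complex, was higher at 293 ± 24.8 CPM in ZFmut and 233 ± 9.73 CPM in WT (0.33 ± 0.06, edgeR adjusted p = 0.000912; 0.21 after GC and length correction). WRAP53, a telomerase factor that CCT folds, was higher by 0.24 ± 0.06 (edgeR adjusted p = 0.00572; 0.16 after correction). GNB2, a G protein beta subunit, was lower at 424 ± 28.8 CPM in ZFmut and 507 ± 22.7 CPM in WT (-0.26 ± 0.06, edgeR adjusted p = 0.00343; -0.43 after correction). STAT3, a transcription factor, was lower at 190 ± 4.69 CPM in ZFmut and 232 ± 2.08 CPM in WT (-0.29 ± 0.05, edgeR adjusted p = 0.000379). The higher count was 3 without ZFmut replicate 2 or WT replicate 3 and 2 without ZFmut replicate 3. The lower count was 3 without ZFmut replicate 2, ZFmut replicate 3 or WT replicate 1.

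Of 10 genes of the BBSome, a ciliary coat that matures with CCT, and of its chaperonin-like helpers, 0 were higher and 5 lower, with a median of -0.21. After GC and length correction 1 was higher and 4 were lower, with a median of -0.09. Over all tested genes 18.4% were lower, and 21.0% after the correction. BBS12, a chaperonin-like helper, had 2.82 ± 0.299 CPM in ZFmut and 4.33 ± 0.507 CPM in WT (-0.63 ± 0.14, edgeR adjusted p = 0.00242). The BBSome subunits BBS2 and BBS7 were lower at -0.35 ± 0.07 and -0.38 ± 0.08 (edgeR adjusted p = 0.00113 and 0.00195). BBS4, at -0.22 ± 0.07 (edgeR adjusted p = 0.0267), lost its call without ZFmut replicate 2, ZFmut replicate 3, WT replicate 1 or WT replicate 2 (0.0789 to 0.161). Without ZFmut replicate 2, ZFmut replicate 3 or WT replicate 1, 3 of the 10 were lower. The chaperonin-like MKKS had 39.3 ± 2.21 CPM in ZFmut and 38.3 ± 1.58 CPM in WT (0.04 ± 0.06, edgeR adjusted p = 0.702), and was the higher one after correction (0.17, 0.0244).

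Other folding machines gave mixed values. Of 19 cytosolic genes of the HSP70 and HSP90 system, 5 were higher and 1 lower. The counts were the same after GC and length correction, but not all the genes called were the same, and the lower one was another gene. All tested genes had 17.2% higher and 18.4% lower, and 20.4% and 21.0% after the correction. The median of the list was 0.01, beside -0.004 over all tested genes. CDC37, which loads kinases onto HSP90, was higher by 0.25 ± 0.06 (edgeR adjusted p = 0.00648), and the HSP70 co-chaperone BAG2 by 0.21 ± 0.06 (0.00910). After GC and length correction CDC37 was at 0.11 (edgeR adjusted p = 0.0323) and BAG2 at 0.35 (5.65e-06). STIP1, which links HSP70 to HSP90, averaged 667 ± 29.8 CPM in ZFmut and 593 ± 2.01 CPM in WT (0.17 ± 0.05, edgeR adjusted p = 0.0146), but did not pass after the correction (0.08, 0.0851). HSP90AB1, the constitutive HSP90, was higher by 0.16 ± 0.04 (edgeR adjusted p = 0.00716). Without WT replicate 3, BAG2 (edgeR adjusted p = 0.0530), STIP1 (0.0707) and HSP90AB1 (0.0617) missed the threshold and 1 of the 19 was higher. Without WT replicate 2, 3 were higher, and STIP1 missed it at 0.0554. The lower call was lost without ZFmut replicate 3, WT replicate 1 or WT replicate 3, and 3 were lower with the replicate block.

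Of the mitochondrial chaperonin pair, HSPD1 had 662 ± 39.7 CPM in ZFmut and 621 ± 11.6 CPM in WT (0.09 ± 0.05, edgeR adjusted p = 0.202) and its partner HSPE1 19.2 ± 2.53 CPM in ZFmut and 21.2 ± 1.22 CPM in WT (-0.13 ± 0.09, 0.292). With GC and length correction HSPD1 was higher (0.14, edgeR adjusted p = 0.00524), and with the replicate block 1 of the pair was higher. Of the heat shock factors, the transcription factors that switch on chaperone genes, HSF1 averaged 166 ± 13.4 CPM in ZFmut and 140 ± 10.2 CPM in WT (0.25 ± 0.07, edgeR adjusted p = 0.0107). The HSF1 call ended without ZFmut replicate 3 (0.20, edgeR adjusted p = 0.0708) and after GC and length correction (0.08, 0.0731). HSF2 and HSF4 were at -0.20 and -0.23 and did not pass (edgeR adjusted p = 0.0901 and 0.122). After GC and length correction HSF4 was lower (-0.40, edgeR adjusted p = 0.00294) and HSF2 did not pass (-0.12, 0.174). Among the 3 factors 1 was called lower in the fit without ZFmut replicate 1, with limma-voom, with the replicate block and after GC and length correction. Over all tested genes 18.4% were lower in the main fit, and 21.0% after the correction.

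**Figure D5:**
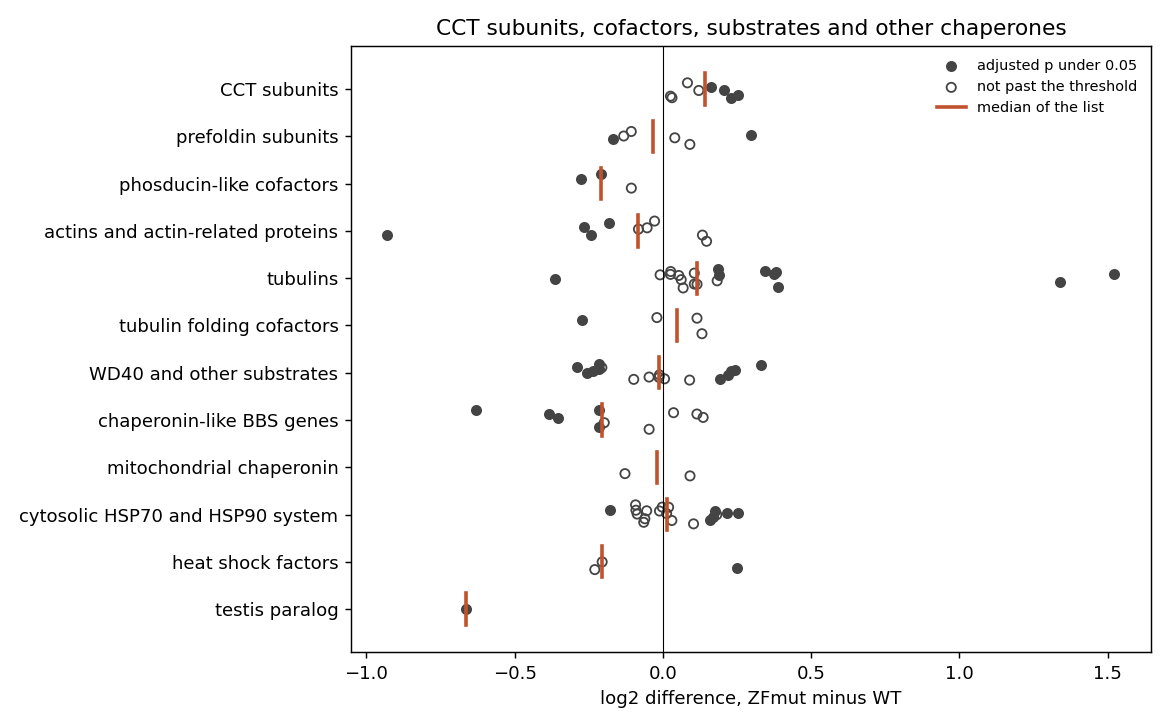
Log2 difference (ZFmut minus WT) of each tested gene, grouped by list (rows), with the median of each list as a vertical bar; filled points have an edgeR adjusted p under 0.05. The CCT subunits lie between 0.03 and 0.25, tubulins reach 1.52, and most actins and BBS genes lie below 0.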

How the data were processed

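The deposited files hold raw counts of reads per Ensembl gene, 1 file per library, and 5 summary lines that name no gene, which were left out; they put 7.71 to 8.08% of reads on more than 1 gene and 16.1 to 19.4% on several genome positions. The tools named are HTSeq, TopHat2 2.0.9, DESeq2 and cutadapt, with the GRCh38 build, per the submitters' processing notes; for their roles, the annotation release and the strand setting, the sources used here give nothing. Symbols, lengths and GC content came from GENCODE (56996 IDs, 94.1%, matched); the ID of TBCE was not matched. edgeR 4.0.16 in R 4.3.3 (TMM, filterByExpr, quasi-likelihood test without covariates, Benjamini-Hochberg adjustment over 18683 genes, threshold 0.05) gave all log2 differences, ZFmut minus WT; the biological coefficient of variation was 6.27%. The script was tested on simulated data. The labels do not say whether replicates are separate cultures; p-values then cover only the spread of these samples, part or all of which can be technical.

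The members and lists were chosen with earlier results of these data known. Named genes are the members, CCT6B, overlapping or head-to-head genes, and up to 4 called genes per list with the smallest p. The 6 genes most like the members and ZBTB7B are named as well. TUBB, TUBB3, ACTB, MKKS, HSPD1, HSPE1, HSF2 and HSF4 were added after their values were seen. Alternatives were other scalings, DESeq2 1.42.0, limma-voom 3.58.1, other filters, each library left out, thinning, a GC and length correction (loess span 0.5) and the replicate number as a block. Deviations of same-numbered libraries from their group means correlated at 0.583, 0.341 and 0.377 over 10229 genes. ZFmut replicate 2 with WT replicate 3 gave 0.216, and ZFmut replicate 3 with WT replicate 2 gave 0.182. Pairs of replicate 1 with another number ran from -0.428 to -0.383. By this check replicate 1 stood apart, while replicates 2 and 3 were less clearly told apart. The labels do not say what a replicate number stands for. The main fit therefore has no block, and it called 4 of the 8 subunits against 6 with the block. More of all tested genes were called with the block as well, both higher and lower.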

Additional observations from a re-analysis of the deposited data

How the results depend on the processing

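Over the 16 alternative fits, the sign changed for 3 neighbours of the subunits that passed in none of them. The ACAT2 log2 difference ran from -0.0023 to 0.065 when a library was left out, and was at -0.0063 with GC and length correction and -0.0059 with that and the replicate block. AF129075.1, in an intron of CCT8, was at -0.049 after thinning. TSACC overlaps CCT3 on the other strand and shares 0 exon bases with it. The TSACC log2 difference ran from -0.13 to 0.031 when a library was left out. It was at 0.0038 with the replicate block and 0.030 with that and the correction. The count of CCT subunits called higher was 4; it was 7 with GC and length correction, 8 with that correction and the replicate block, 6 with the replicate block alone, and 3 to 5 when a library was left out, while 0 were lower in each of these fits. Over all tested genes, too, more were called higher with the block, the correction or both than in the main fit. Fewer were called higher in each fit without a library, except that without ZFmut replicate 1. The median difference of the 8 subunits ran from 0.12 to 0.18, both ends from fits without a library. In the fit with the replicate block, the named genes not mentioned with the block in the report kept their side of the threshold. MAPKAP1 was the exception and passed (edgeR adjusted p = 0.0169), and TUBB3 is not covered by this statement. Among single genes, lists and levels, 48 values lost a call, 8 gained 1 and 70 moved; the causes were not tested, apart from the exon length, which sets the levels per kilobase by construction. Each subunit had at least 7215 reads per library. After thinning to the smallest total, the CCT6B log2 difference kept its call (-0.65, edgeR adjusted p = 0.0410) and that of ACTA1 did not (-0.80, 0.189).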
